A study of Mus musculus with 14 samples.

Results

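The binding of BMP effectors was examined at 49 genes of the Wnt pathway, out of 21757 protein-coding genes of the GENCODE annotation on GRCm39. They comprise 19 Wnt ligands, 10 Frizzled receptors, the 2 coreceptors Lrp5 and Lrp6, 3 intracellular components, 4 TCF/LEF factors, 5 secreted antagonists, and 6 genes of the R-spondin module. A gene was counted for a peak list when at least 1 peak of that list overlapped its canonical transcript or the 20 kb on either side of it. All 49 genes were found in the annotation and all are accounted for in each list.

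The lists come from CUT&Tag, in which an antibody directs the Tn5 transposase to its target on chromatin, so that the DNA there is cut and tagged. MuSCs were purified by FACS for GFP from muscles of female mice aged 9 weeks with the genotype C57BL/6N(Tg(Pax7-EGFP)Tajb), whose GFP reports Pax7. According to the methods, the sorted cells were then cultured for days in medium with serum, basic FGF and leukemia inhibitory factor, under low oxygen. The lists therefore describe cultured and not freshly sorted MuSCs. After 6 h without serum, in the presence of 200 ng/mL soluble BMP receptor (BMPR-1A-Fc), the cells were stimulated for 1 h with BMP6 at 100 ng/mL, or given its vehicle, which was HCl at 4 mM containing 0.1% BSA. The starvation and the soluble receptor were shared by both groups, and the vehicle group is called control. Of 14 samples, 12 entered 6 consensus lists, each made from 2 biological replicates for pSMAD1/5/9, SMAD4 or H3K27ac, and the remaining 2, from which the primary antibody was omitted, were not analysed here. The pSMAD1/5/9 lists hold 7339 peaks after BMP6 and 949 in control, the SMAD4 lists 12860 and 8577, and the H3K27ac lists 78050 and 67790. The lists hold no reads per sample, and the depth of each peak is therefore unknown. A consensus over a cell population does not tell a site occupied in few cells from one occupied briefly or weakly in many. H3K27ac, a mark of active promoters and enhancers, lay within 2 kb of the transcript start of 9 of 10 MuSC markers in both conditions, Chrdl2 being without it. Among the markers of other cells reported here, it lay at 0 of 5 endothelial genes in both conditions. It lay at 1 of 5 fibro-adipogenic genes (Dpt) and 1 of 4 smooth muscle and pericyte genes (Cspg4), also in both. Of 5 leukocyte genes, it lay at 1 after BMP6 (Cd68) and at 2 in control (Cd68 and Csf1r).

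Wnt ligands are secreted lipid-modified glycoproteins that bind Frizzled receptors together with the coreceptors LRP5 and LRP6. In the canonical branch this stops the destruction complex, which is built on AXIN proteins, from removing β-catenin, and β-catenin then acts with TCF/LEF factors on target genes. R-spondins bound to LGR receptors remove the ubiquitin ligases ZNRF3 and RNF43, which otherwise take Frizzled receptors off the cell surface. In skeletal muscle, WNT7A acting through FZD7 is known for driving the symmetric expansion of MuSCs, and canonical Wnt signaling is known to accompany their differentiation. BMP receptors phosphorylate SMAD1, SMAD5 and SMAD9, which enter the nucleus with SMAD4.

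The sequences shown are 200 bp of GRCm39 centred on the summits of 6 pSMAD1/5/9 sites of BMP6-stimulated cells. They were chosen because they hold the strongest sites of Wnt7b, Wnt9a, Wnt5b and Lrp5, both sites at which a pSMAD1/5/9 peak was also listed in control cells (the intronic site of Wnt7b and the proximal site of Wnt9a), and the distal site of Wnt9a. Capitals mark matches on either strand to GGAGCC, a GC-rich element of BMP SMADs, to CAGACA, which holds the AGAC core of SMAD4 sites, or to the E-box CAGCTG, and no other searched motif matched in these windows.
Wnt7b upstream site, chr15:85484427-85484626, plus strand: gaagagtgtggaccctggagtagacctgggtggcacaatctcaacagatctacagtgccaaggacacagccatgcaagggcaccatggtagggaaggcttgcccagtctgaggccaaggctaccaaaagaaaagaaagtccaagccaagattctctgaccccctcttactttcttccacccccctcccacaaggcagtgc
Wnt7b intronic site, chr15:85458818-85459017, plus strand: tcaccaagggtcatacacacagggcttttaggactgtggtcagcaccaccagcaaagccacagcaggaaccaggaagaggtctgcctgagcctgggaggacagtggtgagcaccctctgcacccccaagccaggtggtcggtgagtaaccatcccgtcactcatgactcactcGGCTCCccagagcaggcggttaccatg
Wnt9a proximal intronic site, chr11:59203771-59203970, plus strand: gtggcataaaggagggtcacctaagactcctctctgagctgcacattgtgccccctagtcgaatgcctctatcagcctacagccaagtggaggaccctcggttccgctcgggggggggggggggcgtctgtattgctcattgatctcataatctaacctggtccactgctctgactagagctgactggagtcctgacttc
Wnt9a distal intronic site, chr11:59213935-59214134, plus strand: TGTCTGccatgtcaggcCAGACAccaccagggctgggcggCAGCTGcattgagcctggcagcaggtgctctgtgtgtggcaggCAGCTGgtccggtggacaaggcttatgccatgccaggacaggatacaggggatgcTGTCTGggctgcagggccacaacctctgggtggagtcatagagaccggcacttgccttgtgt
Wnt5b intronic site, chr6:119456069-119456268, plus strand: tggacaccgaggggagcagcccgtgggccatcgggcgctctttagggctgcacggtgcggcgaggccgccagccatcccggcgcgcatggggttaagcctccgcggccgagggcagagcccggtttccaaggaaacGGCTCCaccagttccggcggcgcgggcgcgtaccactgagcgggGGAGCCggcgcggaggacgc
Lrp5 intronic site, chr19:3731476-3731675, plus strand: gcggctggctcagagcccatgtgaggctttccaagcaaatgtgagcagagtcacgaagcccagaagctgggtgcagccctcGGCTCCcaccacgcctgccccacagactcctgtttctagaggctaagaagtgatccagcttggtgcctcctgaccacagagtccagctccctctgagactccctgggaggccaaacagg

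The strongest pSMAD1/5/9 site of the Wnt genes, upstream of Wnt7b, held none of the searched motifs in its 200 bp, and neither did the proximal intronic site of Wnt9a. The distal intronic site of Wnt9a held 5 matches, 3 to CAGACA and 2 to CAGCTG. The window within Wnt5b held 2 matches to GGAGCC. One match to the same element lay in the window of the Lrp5 site and in that of the intronic Wnt7b site. Not shown are the windows of Wnt6, with 1 match to CAGACA, and of the Wnt7b site beyond its end, without a match. Both sites ranked above that of Lrp5 (1326 and 1341 against 2011). A match describes letters and not a bound protein, and a window without one says nothing about the factor.

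After BMP6, 13 of the 49 Wnt genes (26.5%, Wilson 95% interval 16.2 to 40.3%) had a pSMAD1/5/9 peak, namely Wnt3a, Wnt5b, Wnt6, Wnt7b, Wnt9a, Wnt10b, Fzd2, Fzd4, Fzd5, Fzd7, Lrp5, Axin1 and Tcf7l1. The share among all protein-coding genes was 29.1%, which lies within that interval. In control cells, only Wnt7b and Wnt9a had one (4.08%, against 5.97% of all genes). SMAD4 peaks were listed at 24 Wnt genes after BMP6 (49%, interval 35.6 to 62.5%, against 39.3% of all genes) and at 14 in control (28.6%, against 30.8%). H3K27ac peaks were listed at 40 Wnt genes after BMP6 (against 74.8% of all genes) and at 38 in control (against 73.4%). In each of the 6 lists, the interval of the Wnt genes thus included the share of all genes. The intervals treat genes as separate draws and cover counting error only. Of the counts for 1 condition only, given further below, some had intervals above the share of all genes. These were SMAD4 after BMP6 only, H3K27ac after BMP6 only and H3K27ac in control only, and no difference was tested. The regions of the Wnt genes were a little longer, with a median of 67.1 kb against 56.3 kb for all genes. Per 100 kb of region, they held 0.521 pSMAD1/5/9 peaks after BMP6 against 0.587 for all genes, and 1.09 SMAD4 peaks against 0.973.

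**Figure D1:**
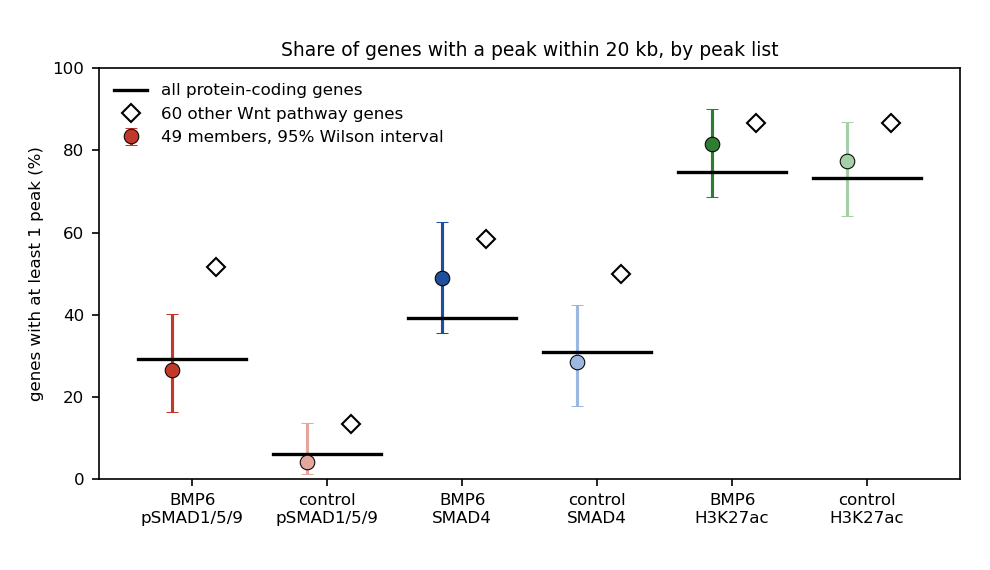
Share of genes with at least 1 peak within 20 kb (vertical axis, %) in each of the 6 peak lists (horizontal axis), for the 49 Wnt genes (circles, bars are Wilson 95% intervals), all 21757 protein-coding genes (black lines) and 60 other genes of the Wnt pathway (diamonds). The black line crosses the interval of the 49 genes in each list, and after BMP6 26.5% of them had a pSMAD1/5/9 peak against 29.1% of all genes.

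Among genes with H3K27ac after BMP6, pSMAD1/5/9 was listed at 13 of 40 Wnt genes (32.5%) against 38.8% of all such genes, and SMAD4 at 24 of 40 (60%) against 52.3%. All 13 Wnt genes with pSMAD1/5/9 after BMP6 also had SMAD4 (26.5%, against 25.4% of all genes with both). At 10 of them, a pSMAD1/5/9 peak itself overlapped a SMAD4 peak by at least 1 bp (against 22.7% of all genes). At Wnt10b, Fzd7 and Tcf7l1, peaks of both factors lay in the region without overlapping. A pSMAD1/5/9 peak without SMAD4 was listed at 0 of 49 Wnt genes (interval up to 7.27%), where the share of all genes was 3.68%. At least 1 of these factors was listed at 24 Wnt genes, against 43.0% of all genes.

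**Figure D2:**
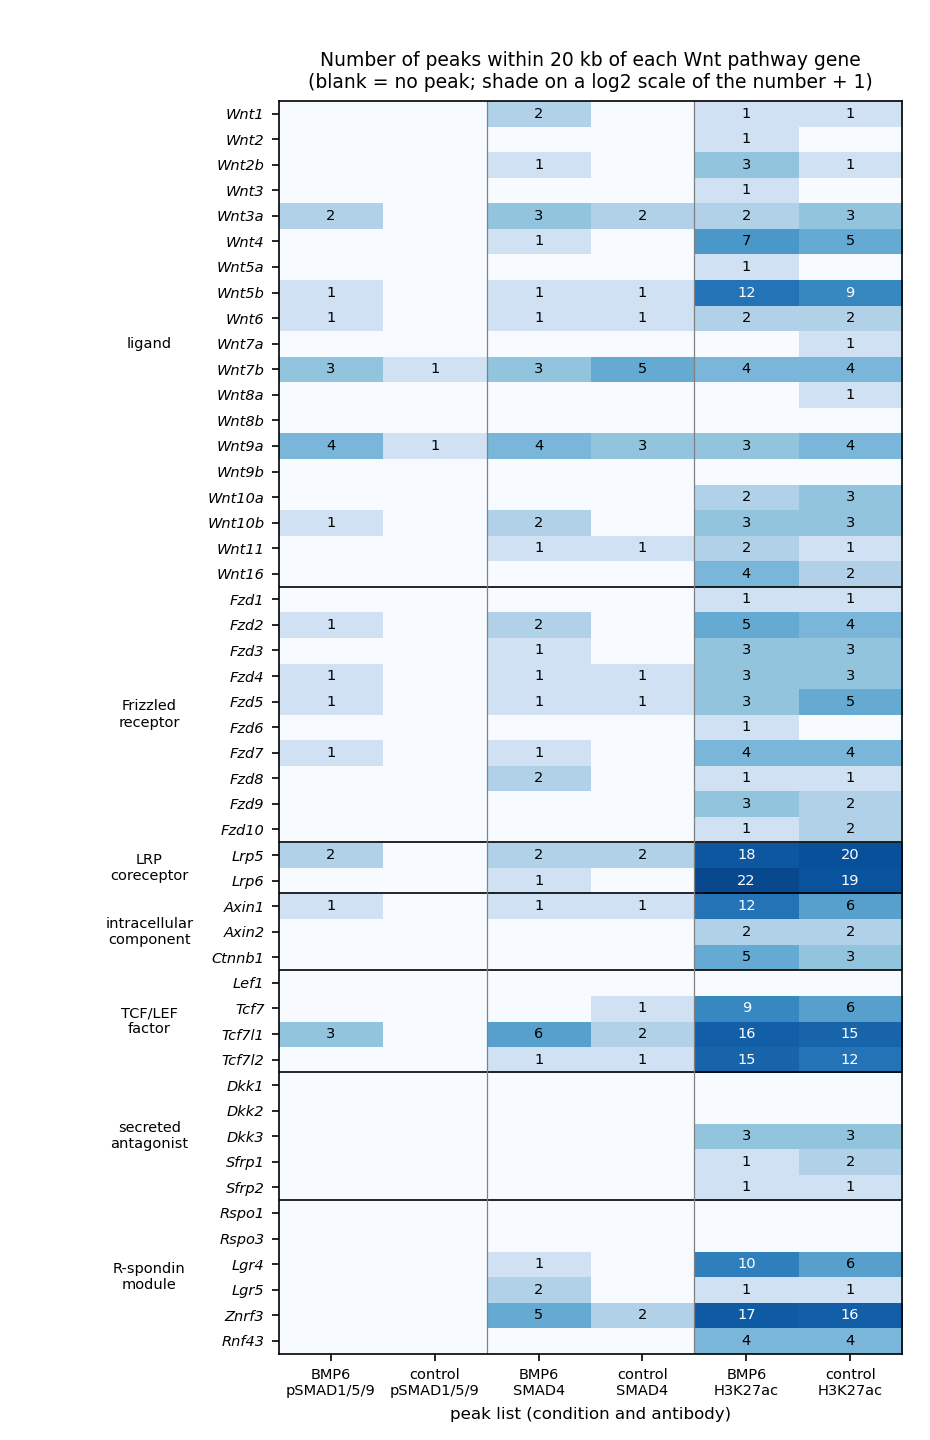
Number of peaks within 20 kb of each of the 49 Wnt genes (rows, ordered by role) in the 6 lists (columns); blank cells have no peak and the shade follows log2 of the number plus 1. pSMAD1/5/9 peaks were listed at ligands, Frizzled receptors, Lrp5, Axin1 and Tcf7l1, and at none of the secreted antagonists or the R-spondin module. Of all genes, 29.1% had a pSMAD1/5/9 peak after BMP6, and differences between gene groups were not tested.

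The Wnt ligands carried the strongest sites. Of the 19 ligand genes, 6 had pSMAD1/5/9 peaks after BMP6 and 10 had SMAD4 peaks. The first was Wnt7b (ENSMUSG00000022382.17), at 85419638 to 85466150 of chromosome 15, minus strand, whose product is a ligand of both canonical and other Wnt signaling. Its upstream site, from 85483201 to 85485309, had its pSMAD1/5/9 summit 18377 bp before the transcript start and signals of 58735.9 and 32776.7 in the replicate columns. It ranked 79 of 7339 peaks, that is within the strongest 1.08% of the list. SMAD4 peaked there after BMP6 with signals of 38237.2 and 18073.2 and rank 219 of 12860. In control cells no pSMAD1/5/9 peak was listed at this site, while SMAD4 was listed there as 2 peaks, the stronger with signals of 27838.5 and 11832.8 and rank 280 of 8577. The site was thus among the strongest SMAD4 peaks of both conditions and was listed for pSMAD1/5/9 after BMP6 only.

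Wnt7b had 2 further pSMAD1/5/9 peaks after BMP6. The intronic one, 7232 bp after the transcript start, had signals of 26002.3 and 12703.3 and rank 1162. It was 1 of 2 Wnt sites that were also listed for pSMAD1/5/9 in control cells, with signals of 18932.7 and 15094.4 there and rank 416 of 949. Its SMAD4 peak had a lower place in the list, rank 5885 after BMP6. The other lay beyond the end of the gene, 58416 bp after the transcript start, with signals of 18846.1 and 17150.6 and rank 1341. All 3 sites lay within H3K27ac peaks of both conditions, and the upstream one lay within a block of 10920 bp after BMP6 and 10600 bp in control, ranked 663 of 78050 and 504 of 67790. No H3K27ac peak lay within 2 kb of any of the 5 annotated basic transcript starts of Wnt7b in either condition.

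**Figure D3:**
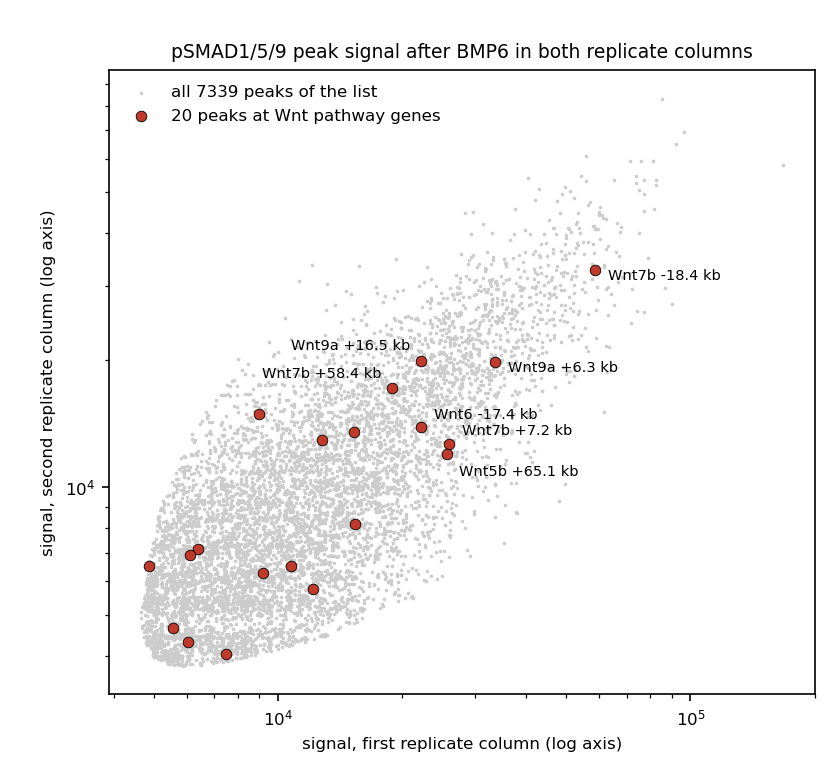
Signal of pSMAD1/5/9 peaks after BMP6 in the first (horizontal) and second (vertical) replicate column, both on log axes in the units of the peak caller, for all 7339 peaks (grey) and the 20 distinct peaks at Wnt genes (red), with the distance of the summit from the transcript start given for the 7 strongest. The Wnt7b upstream site stands highest, at 58735.9 and 32776.7, and the other red points spread over the range of the list.

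Wnt9a (ENSMUSG00000000126.13, plus strand of chromosome 11, 59197567 to 59224378) had 4 pSMAD1/5/9 peaks after BMP6, the highest number among the Wnt genes. It encodes a ligand known from joint and blood stem cell development. Its proximal intronic site, 6304 bp after the transcript start, had signals of 33590.6 and 19847.7 and rank 505. In control cells a pSMAD1/5/9 peak overlapped this site with signals of 10849.0 and 7916.27 and rank 871 of 949, so it was near the end of that list. The distal intronic site, 16468 bp after the start, had signals of 22231.6 and 19925.2 and rank 964. SMAD4 ranked there 631 after BMP6 and 455 in control, with control signals of 19858.9 and 14052.2, and no pSMAD1/5/9 peak was listed there in control. These sites followed the upstream site of Wnt7b in strength among the Wnt genes, and both overlapped SMAD4 in both conditions.

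The remaining 2 peaks of Wnt9a lay 1430 bp and 2356 bp after its start. They had ranks 2715 and 6479, with signals of 8998.62 and 14930.7 for the first and of 4878.81 and 6523.12 for the second. They were also counted for Wnt3a, because the genes are neighbours 16.0 kb apart, and they were the only pSMAD1/5/9 peaks of Wnt3a (17413 bp and 18339 bp before its start). Wnt3a, a canonical ligand, therefore owed its count to peaks nearest to the start of Wnt9a. Counting only the gene with the nearest transcript start left 9 Wnt genes with pSMAD1/5/9 after BMP6, against 17.0% of all genes under the same rule.

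Wnt5b, a ligand of mainly non-canonical signaling, had 1 pSMAD1/5/9 peak, in an intron 65139 bp after the canonical start, with signals of 25653.4 and 12029.4 and rank 1212. The nearest transcript start was that of Fbxl14, which encodes an F-box protein and lies within the Wnt5b intron, 460 bp from the summit. One of 17 annotated basic starts of Wnt5b lay 1608 bp from it. SMAD4 overlapped the site in both conditions, with rank 3060 after BMP6 and 2165 in control. Wnt6, another ligand, had a site 17445 bp before its start with signals of 22251.5 and 13906.9 and rank 1326, and the start nearest to it was that of Prkag3, at 5097 bp. Wnt10b had 1 weak peak 10220 bp after its start and beyond its end, with signals of 5559.88 and 4648.54 and rank 6947. The sites of these ligands were therefore either far from their starts or close to another gene.

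**Figure D4:**
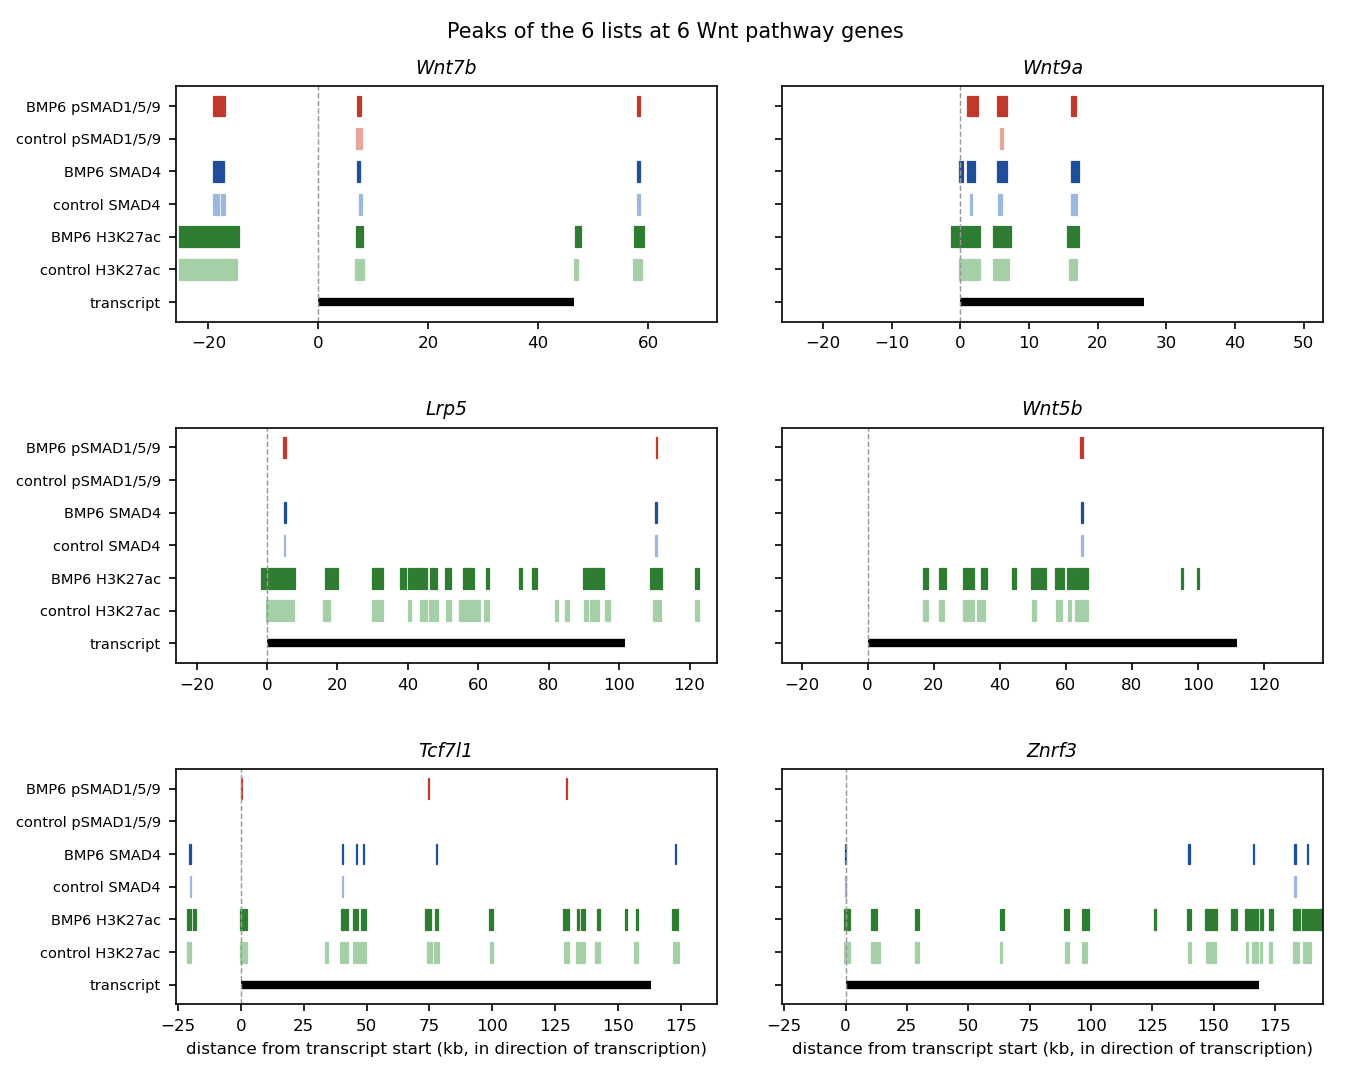
Peaks of the 6 lists (coloured boxes, 1 row per list) at Wnt7b, Wnt9a, Lrp5, Wnt5b, Tcf7l1 and Znrf3, by distance from the start of the canonical transcript in the direction of transcription (kb), with the transcript as a black bar. Only peaks that overlap the gene or its flanks of 20 kb are drawn. At Wnt7b all 3 pSMAD1/5/9 peaks after BMP6 overlap SMAD4 peaks, and at Wnt9a 3 of 4 do. The drawn pSMAD1/5/9 and SMAD4 peaks of Tcf7l1 after BMP6 stand apart. Its SMAD4 peak at the upstream edge overlaps a pSMAD1/5/9 peak that is not drawn. Within this range, Znrf3 has SMAD4 peaks and none of pSMAD1/5/9.

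Of the 10 Frizzled receptor genes, 4 had pSMAD1/5/9 peaks after BMP6 and none did in control. All 4 peaks lay at the transcript start. Fzd5 had the strongest, 45 bp after the start, with signals of 12773.5 and 12954.3 and rank 2436. Fzd7, the receptor of WNT7A in MuSCs, had a peak 41 bp after its start with signals of 9219.71 and 6268.11 and rank 4869. Fzd4, known as the receptor of norrin in vessels, had one 82 bp before its start with signals of 6397.42 and 7143.74 and rank 5600. Fzd2 had one 102 bp before its start with signals of 7486.77 and 4030.29 and rank 6430. Except for Fzd5, these peaks stood in the weaker part of the list. SMAD4 was listed at 6 Frizzled genes after BMP6 (Fzd2, Fzd3, Fzd4, Fzd5, Fzd7 and Fzd8) and at 2 in control (Fzd4 and Fzd5). H3K27ac was listed at all 10 after BMP6 and at 9 in control, the exception being Fzd6.

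Lrp5 (ENSMUSG00000024913.18, minus strand of chromosome 19, 3634828 to 3736564, with 23 exons) had 2 pSMAD1/5/9 peaks after BMP6. The first lay in an intron, 4988 bp after the start, with signals of 15248.8 and 13507.7 and rank 2011. SMAD4 overlapped it with rank 3163 of 12860 after BMP6, signals 12094.9 and 4921.22, and rank 6431 of 8577 in control, signals 3705.58 and 2983.94. The other, beyond the end of Lrp5, had its summit 25 bp from the start of Ppp6r3, which encodes a phosphatase subunit. Lrp6 had no pSMAD1/5/9 peak, and the nearest one lay 262.6 kb away. It had a SMAD4 peak after BMP6 only, 182 bp after its start, with signals of 7472.17 and 5399.62 and rank 4599. The coreceptors had 18 and 22 H3K27ac peaks after BMP6 and 20 and 19 in control, Lrp5 first, and together with Znrf3, with 17 and 16, they were the genes with most H3K27ac peaks after BMP6.

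Within 2 kb of the transcript start, pSMAD1/5/9 was listed after BMP6 at 7 Wnt genes (14.3%, interval 7.10 to 26.7%), Wnt9a, Fzd2, Fzd4, Fzd5, Fzd7, Axin1 and Tcf7l1, against 12% of all genes. In control it was listed at 0 of 49, against 1.74%. SMAD4 was listed there at 13 after BMP6 (26.5%, interval 16.2 to 40.3%, against 17.8% of all genes) and at 6 in control (12.2%, against 12.4%). H3K27ac marked the start of 22 Wnt genes after BMP6 (against 55.1%) and of 23 in control (against 53.0%). Of the 19 ligand genes, only Wnt4, Wnt9a and Wnt10b had H3K27ac at the canonical start after BMP6. Of the 10 Frizzled genes, 8 had it there. When all 17 annotated basic starts of Wnt5b were counted, that ligand gene had H3K27ac at a start too, in both conditions.

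Among the intracellular components, Axin1, a scaffold of the destruction complex, had a pSMAD1/5/9 peak 22 bp before its start after BMP6, with signals of 12177.2 and 5740.29 and rank 4094. SMAD4 overlapped it with rank 4934 after BMP6 and 2557 in control. Axin2, the widely used feedback target of canonical Wnt signaling, had no pSMAD1/5/9 or SMAD4 peak in either condition, and the nearest pSMAD1/5/9 peak after BMP6 lay 474.6 kb from it. It did have H3K27ac at its start in both conditions, with signals of 1605.76 and 1552.60 after BMP6 and of 2181.17 and 1503.18 in control. Ctnnb1, which encodes β-catenin, likewise had H3K27ac at its start and no SMAD peak.

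Of the 4 TCF/LEF genes, Tcf7l1, which encodes the factor known mainly as a repressor, had 3 pSMAD1/5/9 and 6 SMAD4 peaks after BMP6 over a gene of 163236 bp. The pSMAD1/5/9 peaks lay 129440 bp, 174 bp and 74603 bp after the start, with ranks 4305, 5789 and 6888, and none of them overlapped a SMAD4 peak. The strongest had signals of 10760.1 and 6510.45. A SMAD4 peak at the upstream edge of the region did overlap a pSMAD1/5/9 peak, which began outside the 20 kb and was not counted. Tcf7l2 had a SMAD4 peak in each condition, 109809 bp after the start after BMP6, rank 6572, and 1921 bp after it in control, rank 8379, so that different sites were listed. Tcf7 was the only Wnt gene with SMAD4 in control and none after BMP6 (against 4.24% of all genes). That peak, beyond the end of the gene, had signals of 3678.94 and 3468.20 and rank 6078 of 8577. Lef1 had no peak in any list.

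None of the secreted antagonists Dkk1, Dkk2, Dkk3, Sfrp1 and Sfrp2 had a pSMAD1/5/9 or SMAD4 peak in either condition. Among all genes, 43.0% had at least 1 of these factors after BMP6. Dkk3 had 3 H3K27ac peaks in each condition, and Dkk1 and Dkk2 had none. In the R-spondin module no gene had pSMAD1/5/9 within 20 kb, and Lgr4, Lgr5 and Znrf3 had SMAD4 after BMP6. The nearest pSMAD1/5/9 peak after BMP6 lay 24.7 kb from Znrf3 and 25.1 kb from Dkk3, just outside the counted regions. The shares of all genes after BMP6 were 29.1% for pSMAD1/5/9 and 39.3% for SMAD4. These groups hold only 5 and 6 genes, and no difference from all genes was tested. Rnf43 had 4 H3K27ac peaks in each condition, all beyond its end, and no SMAD peak. The 7 Wnt genes without a peak in any of the 6 lists were Wnt8b, Wnt9b, Lef1, Dkk1, Dkk2, Rspo1 and Rspo3, against 24.2% of all genes.

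SMAD4 without pSMAD1/5/9 was listed after BMP6 at 11 Wnt genes (22.4%, interval 13.0 to 35.9%), against 13.9% of all genes. They were Wnt1, Wnt2b, Wnt4, Wnt11, Fzd3, Fzd8, Lrp6, Tcf7l2, Lgr4, Lgr5 and Znrf3. Znrf3 had 5 SMAD4 peaks, the strongest with signals of 8843.36 and 7909.34 and rank 3232. Its summit lay beyond the end of Znrf3 and 60 bp from the start of the neighbour Kremen1, which encodes a receptor of Dickkopf proteins. At its own start, 89 bp upstream, Znrf3 had a SMAD4 peak in both conditions, with signals of 8548.54 and 1881.03 after BMP6, a ratio of 4.54 between replicate columns and the widest at the Wnt genes in that list. Wnt1, whose product is the founding ligand of the family, was counted for 2 SMAD4 peaks that it shared with Wnt10b, the stronger 326 bp after the start of Wnt10b, with signals of 10704.0 and 5710.63 and rank 3324. Wnt2b had a peak 16879 bp after its start with signals of 10769.7 and 2901.44 and rank 4248. Lgr4 had one 214 bp after its start with signals of 7008.46 and 5248.73 and rank 4884. Lgr5 had 2 weak peaks, ranks 11414 and 11825 of 12860, the stronger with signals of 2662.72 and 1942.86.

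**Figure D5:**
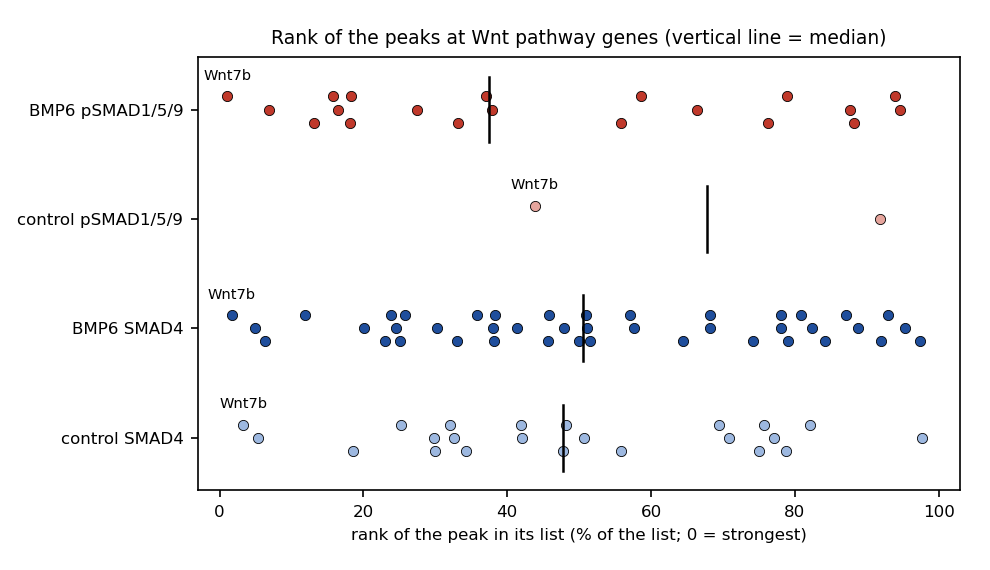
Rank of each distinct peak at the Wnt genes within its list (horizontal axis, % of the list, 0 being strongest) for the 4 SMAD lists (rows), with the median as a vertical line and the gene of the strongest peak named; points are set at 3 heights only to separate them. Wnt7b leads all 4 lists, and the medians stand at 37.4% and 50.5% of the lists of pSMAD1/5/9 and SMAD4 after BMP6.

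BMP6-stimulated and control cells were compared next. A pSMAD1/5/9 peak after BMP6 and none in control was listed at 11 Wnt genes (22.4%, interval 13.0 to 35.9%), against 23.5% of all genes. The control list was much shorter than the list after BMP6. When the latter was reduced to its 949 strongest peaks, as many as in control, only Wnt7b and Wnt9a had one, so that 0 of 49 Wnt genes were listed after BMP6 only, against 2.52% of all genes. For SMAD4, 11 Wnt genes were listed after BMP6 only (22.4%, interval 13.0 to 35.9%), against 12.8% of all genes: Wnt1, Wnt2b, Wnt4, Wnt10b, Fzd2, Fzd3, Fzd7, Fzd8, Lrp6, Lgr4 and Lgr5. The strongest SMAD4 peak lay within 2 kb of the start at Wnt4, Wnt10b, Fzd2, Fzd7, Fzd8, Lrp6, Lgr4 and Lgr5. At Wnt1, Wnt2b and Fzd3 it lay farther away. The SMAD4 lists also differed in length, with 12860 peaks after BMP6 and 8577 in control, and were not cut to equal length. At Fzd8, Fzd7, Fzd2, Wnt4, Lgr5 and Fzd3 the strongest peak ranked between 8771 and 11946, beyond the length of the control list. At the other genes it ranked between 3324 and 4884, and Wnt1 and Wnt10b were counted for the same 2 peaks. H3K27ac was listed after BMP6 only at Wnt2, Wnt3, Wnt5a and Fzd6 (8.16%, interval 3.22 to 19.2%, against 2.14% of all genes), with 1 peak each. Those peaks stood in the weaker part of the list, ranking between 49925 and 76790 of 78050. In control only, it was listed at Wnt7a and Wnt8a (4.08%, interval 1.13 to 13.7%, against 0.754%), with ranks 64662 and 64347 of 67790. No test between conditions was made, since a list gives replicate signals for its own peaks only and on a scale that is not stated, and a gene counted for 1 condition was not thereby shown to differ.

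Over all Wnt genes, 20 distinct pSMAD1/5/9 peaks were listed after BMP6, with a median rank of 2746 of 7339. Of these, 2 stood in the strongest 10% of the list, 10 passed an IDR of 0.01, as did 50.1% of the list, and the ratio of the replicate columns ran from 0.603 to 2.13. At that stricter threshold, 6 Wnt genes had a pSMAD1/5/9 peak after BMP6 (Wnt5b, Wnt6, Wnt7b, Wnt9a, Fzd5 and Lrp5), against 17.3% of all genes, and none had one in control. A SMAD4 peak after BMP6 overlapped 14 of the 20 (73.2% of the list), a SMAD4 peak of control cells 13 (57.2% of the list), and a pSMAD1/5/9 peak of control cells 2 (11.4% of the list). H3K27ac of either condition overlapped all 20 (98.2% of the list with that after BMP6). The nearest transcript start belonged to one of the 49 genes at 14 of the 20. The Wnt genes outside the count were in part close to it. The nearest pSMAD1/5/9 peak lay 20.2 kb from Tcf7, 21.3 kb from Wnt1, 22.2 kb from Wnt11, 24.7 kb from Znrf3 and 25.1 kb from Dkk3.

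In 200 bp around the summits, GGAGCC was found at 10 of the 20 sites (50%, interval 29.9 to 70.1%) and at 25.2% of all 7339 pSMAD1/5/9 peaks. The member windows were also richer in G and C, with a median of 61.5% against 56%, and the part of base composition in this count was not tested. GGCGCC, the other GC-rich element, was found at 2 sites (7.75% of the list). CAGACA was found at 3 (23.4% of the list) and CAGCTG at 3 (31.1% of the list). GTCTAGAC, which shares AGAC with CAGACA, and the TCF/LEF sequences CTTTGAA and CTTTGAT were found at 0 of 20, where the list had them at 0.518%, 2.36% and 1.43%. Both strands were searched throughout.

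A second list of Wnt pathway genes was drawn up from knowledge of the pathway, with earlier results of these data known. It gave 60 genes that were not among the 49. It holds cytoplasmic components, Wnt secretion factors, coactivators, planar polarity genes and further antagonists. Of these, 31 (51.7%) had a pSMAD1/5/9 peak after BMP6, against 29.1% of all genes, and 8 (13.3%) had one in control, against 5.97%. SMAD4 was listed at 35 (58.3%) after BMP6, against 39.3% of all genes, and at 30 (50%) in control, against 30.8%. Their median region, 69.1 kb, was close in length to that of the 49 genes, and 30 of the 31 had both factors. The strongest pSMAD1/5/9 peaks within 20 kb ranked 45 at Ccn4, which encodes a matricellular protein induced by Wnt signaling, 108 at Kremen1, 133 at Bcl9l, a coactivator of β-catenin, and 214 at Gsk3b, the kinase of the destruction complex. The cell cycle target Ccnd1 had no SMAD peak, and Myc had 1 of each factor after BMP6, with rank 6534 for pSMAD1/5/9. As earlier results were known, the second list is not an independent set. Its difference from the 49 genes and from all genes was not tested.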

How the data were processed

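CUT&Tag peaks for pSMAD1/5/9, SMAD4 and H3K27ac in MuSCs were taken as 6 consensus lists, 1 per antibody and condition, each from 2 biological replicates. Samples were grouped by the antibody and treatment in their labels. According to the methods, reads were brought by the authors to the same number for each antibody by subsampling and aligned to GRCm39 (the submitters' processing notes name Bowtie2 2.5.4, SAMtools 1.21 and bedtools 2.31.1). Peaks were called in each replicate with JAMM and replicates were combined with IDR at 0.05. The deposited signal of a peak is a score of the authors' peak caller without a stated scale, and it equalled the sum of both replicate columns, so signals were compared only by rank within a list. The deposited −log10 of the IDR gave the stricter threshold. The replicate columns carry no replicate number. As no reads are in the lists, the depth at each peak is unknown, and the 2 replicates limit the precision.

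Positions were made 1-based. Genes were the canonical transcripts of 21757 protein-coding genes of GENCODE on GRCm39, extended by 20 kb, and an overlap of 1 bp counted. A peak within 2 kb of a transcript start was placed there, and otherwise upstream, downstream, or in an exon or intron. Shares have Wilson 95% intervals from scipy 1.17.1, and no enrichment test was run. Motifs were counted on both strands in 200 bp of GRCm39 around summits, read with pysam 0.24.0. The scripts ran under Python 3.11.15 (pandas 2.3.3, numpy 2.4.6), and matplotlib 3.10.9 drew the figures. The overlap procedures were tested on simulated data with planted overlaps. Windows that hold an annotated UTR were not printed. A result for 1 marker gene is not reported here.

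The Wnt genes, the second list and the markers were chosen with earlier results of these data known. By a fixed rule, values were given for the 10 genes with the strongest pSMAD1/5/9 peaks after BMP6 and for genes with one in control. The feedback genes Axin2, Lef1, Tcf7, Lgr5, Rnf43, Znrf3 and Dkk1 were described whatever they showed. So were the 5 genes with the strongest SMAD4 peaks and no pSMAD1/5/9, the 3 with most H3K27ac peaks, and genes without a peak by name. Signals were not printed for each peak. Beyond this rule, Fzd2, Fzd4, Wnt10b, Ctnnb1 and Tcf7l2 were described to complete their gene groups, and Ccn4, Kremen1, Bcl9l, Gsk3b, Ccnd1 and Myc were named after their values had been seen. Alternatives covered the region, the IDR threshold, the overlap, the transcripts, the assignment of peaks to genes, the length of the list, each replicate column alone, and the motif window.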

Additional observations from a re-analysis of the deposited data

How the results depend on the processing

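Of 74 values computed under alternatives, 51 stayed within 1.5 times the value reported. In a promoter window of 1.5 kb before and 0.5 kb after the transcript start, the Wnt genes with a peak (share of all genes in parentheses) numbered 6 (11.2%) for pSMAD1/5/9, 11 (16.6%) for SMAD4 and 22 (53.7%) for H3K27ac after BMP6 and 0 (1.56%), 4 (11.4%) and 21 (51.7%) in control, while 4 (8.48%) had both factors and 6 (9.88%) had pSMAD1/5/9 after BMP6 only. With flanks of 50 kb, 22 Wnt genes (40.8%) had pSMAD1/5/9 after BMP6, 22 (37.1%) had both factors, 4 (9.75%) had pSMAD1/5/9 in control and 18 (31.5%) had it after BMP6 only. These settings count fewer or more peaks by construction. At an IDR of 0.01, pSMAD1/5/9 was listed at 6 Wnt genes (17.3%) after BMP6 and 0 (0.915%) in control, SMAD4 at 15 (25.2%) after BMP6, both factors at 6 (14.9%), and pSMAD1/5/9 after BMP6 only at 6 (16.4%). Counting only the gene with the nearest transcript start left 7 (14.4%) with pSMAD1/5/9 after BMP6 only, and lists of equal length left 0 (2.52%). By the replicate columns taken singly, the Wnt7b upstream site ranked 61 and 138, and 2 and 1 Wnt peaks stood in the strongest 10% of the list. In windows of 100 bp, GGAGCC was found at 5 sites (13.8% of the list) and GGCGCC at 1 (4.13%). Transcripts without flanks and the requirement of 50% of the peak inside the region kept each count within 1.5 times. So did all basic transcripts and 1 region per cluster of overlapping genes, for the counts they were run on. The share of all genes moved as well. Without flanks, pSMAD1/5/9 was listed after BMP6 at 10 Wnt genes (16.5%), SMAD4 at 19 (23.9%) and H3K27ac at 27 (62.0%). In control these were 2 (2.77%), 10 (17.5%) and 29 (60.2%). By the nearest transcript start, SMAD4 was listed at 19 (25.0%) after BMP6 and 10 (18.5%) in control. Differences from all genes were not tested. No paired analysis was possible because each list is 1 consensus per condition and its replicate columns carry no replicate number. The total of reads was made equal for each antibody, but the depth at each peak is unknown. A site missing from a list was not detected at this depth and threshold, which does not mean that it is absent.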

Other observations

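Some H3K27ac values at the Wnt genes belonged to no comparison of the report and are given without a test. The strongest H3K27ac peak at Tcf7l2 after BMP6 had its summit 1793 bp after the transcript start and ranked 293 of 78050, with signals of 3681.60 and 12509.3 in the replicate columns. In control, a peak of nearly the same extent ranked 2426 of 67790, with signals of 4112.86 and 6670.25. The ratio of the replicate columns was 0.294 after BMP6 and 0.617 in control.

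Beyond the end of Znrf3, the strongest H3K27ac peak after BMP6 was 17430 bp wide, with its summit 16165 bp from the start of Kremen1, rank 586 and signals of 4297.01 and 9690.87. The strongest in control was another, 2400 bp wide, with its summit 117 bp from the start of Kremen1, rank 4685 and signals of 4301.17 and 4622.61. After BMP6 the start of Kremen1 held a separate peak with rank 2573 and signals of 5098.27 and 4538.48. Of the 42 distinct SMAD4 peaks at the Wnt genes after BMP6, 15 overlapped a pSMAD1/5/9 peak (42.7% of the list) and 19 a SMAD4 peak of control cells (45.5% of the list).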
